A study of Mus musculus with 7 samples.

Results

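The gene-dense region examined here spans 73600 to 74790 kb of mouse chromosome 1 (mm9) and lies to the left of the Epha4 locus, outside every inversion of the study. Its members were all pairs of 10 kb bins with both bins inside it: 119 bins and 7140 pairs, of 1000 bins and 500500 pairs on the whole 10 Mb map. Contacts were measured by capture Hi-C, which ligates DNA ends that lie close together in the nucleus and enriches the ligated fragments of one locus with probes before sequencing. The 7 libraries were wild-type limb buds (WT), limb buds with 1 of 4 CRISPR/Cas9-induced inversions (Inv1, Inv2, Inv3 and Inv4), limb buds with Inv1 and a further deletion that its title names DelCTCF (Inv1DelCTCF), and embryonic stem cells with Inv1 (Inv1 ESC). Limb buds were fore- and hindlimb buds of stage E11.5 titled Distal, 10 embryos were pooled for each limb bud library, and each condition was 1 library. The labels name G4 ESC as the cell type of every library, so only the title and the design text mark the stem cell library. They give neither the alleles in words nor the extent of the deletion, and contact maps hold no transcript with which to check the tissue.

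Chromatin folds into domains, stretches within which loci meet more often than they do across the boundaries between them. Many boundaries of mammalian chromosomes are bound by CTCF, a DNA-binding protein that halts the extrusion of loops by the cohesin ring. Enhancers mostly act on promoters in their own domain, and a rearrangement can bring an enhancer beside genes that it does not normally contact. Epha4 encodes a receptor tyrosine kinase for ephrins and is expressed in limb buds. The gene-dense region allowed a direct question, whether a domain structure that was not itself rearranged differed when the limb enhancer sequence of the Epha4 domain was placed ever closer to it, or when the same chromosome was in stem cells.

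The maps of WT, Inv1, Inv1DelCTCF and Inv1 ESC held 3903621 to 5155259 read pairs, recovered from the balanced values, and 347879 to 445567 of them had both ends in the region. The deposited Inv2, Inv3 and Inv4 maps had a multiple of the WT map subtracted, and 8.17% to 9.38% of the region's pairs were below 0 in them. Before the subtraction these libraries held 303766 to 405374 read pairs in the region. The median pair of bins was supported by 11 to 15 read pairs in each library, so single pairs were imprecise and values were averaged over domains, squares or blocks of 50 kb. Intervals are 95% counting intervals from the read pairs and cover counting error only. With 1 library per condition no difference below has a replicate check, and no p-value is given. All mutant maps were compared with the same WT map, so that an error of that map enters each of these comparisons. In pooled tissue, a contact made in more cells and one made more often in each cell cannot be told apart.

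In the WT limb bud 3 boundaries divided the region into 4 domains. They were called by insulation, the log2 mean contact in a 200 kb square that slides across each bin relative to its mean along the map. A boundary was a local minimum at least 0.2 below the lower of its surrounding peaks within 300 kb, and this drop is its depth. The strongest boundary lay at 73.92 Mb with a depth of 1.36, followed by 74.23 Mb with 0.85 and 74.54 Mb with 0.27. The domains were 320, 300, 300 and 240 kb long and are numbered 1 to 4 from left to right, so that domain 4 adjoins the side on which the inversions lie. The outer ends of domains 1 and 4 are the limits of the chosen region and not called boundaries. Their lengths are therefore those of this cut. The number of boundaries depended on the square: a 100 kb square found 5 for WT, at 73.67, 73.92, 74.17, 74.49 and 74.62 Mb, and a 300 kb square found 2, at 73.91 and 74.25 Mb.

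Contact within and between the WT domains was expressed as observed over expected (O/E), the contact of a pair divided by the mean at its distance outside the rearranged stretch, which runs from the region's right edge to the breakpoint at 75900 kb that all inversions share. Within domains, WT O/E was 1.05 ± 0.0077 (counting SE) in domain 1, 1.59 ± 0.012 in domain 2, 1.44 ± 0.011 in domain 3 and 1.26 ± 0.0124 in domain 4. Domain 1 thus had about the mean contact of the map at its distances, and domain 2 had the most. Between neighbours O/E was 0.437 ± 0.00458 across the boundary at 73.92 Mb, 0.815 ± 0.00723 across that at 74.23 Mb and 0.879 ± 0.00769 across that at 74.54 Mb. The order of these values followed the order of the boundary depths, both of which were read from the same contacts. Domains further apart met less, with 0.567 between domains 2 and 4, 0.314 between 1 and 3 and 0.271 between 1 and 4. Of all contacts of the region's bins in WT, 73.5% stayed inside it, 16.2% went to the left flank (from the start of the map at 71000 kb to the region), 6.34% to the rearranged stretch and 3.97% beyond it. Domain 1, which adjoins the left flank at the region's chosen limit, had 38% of its contacts there. Domains 2, 3 and 4 had 12.3%, 6.32% and 4.56%.

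**Figure D1:**
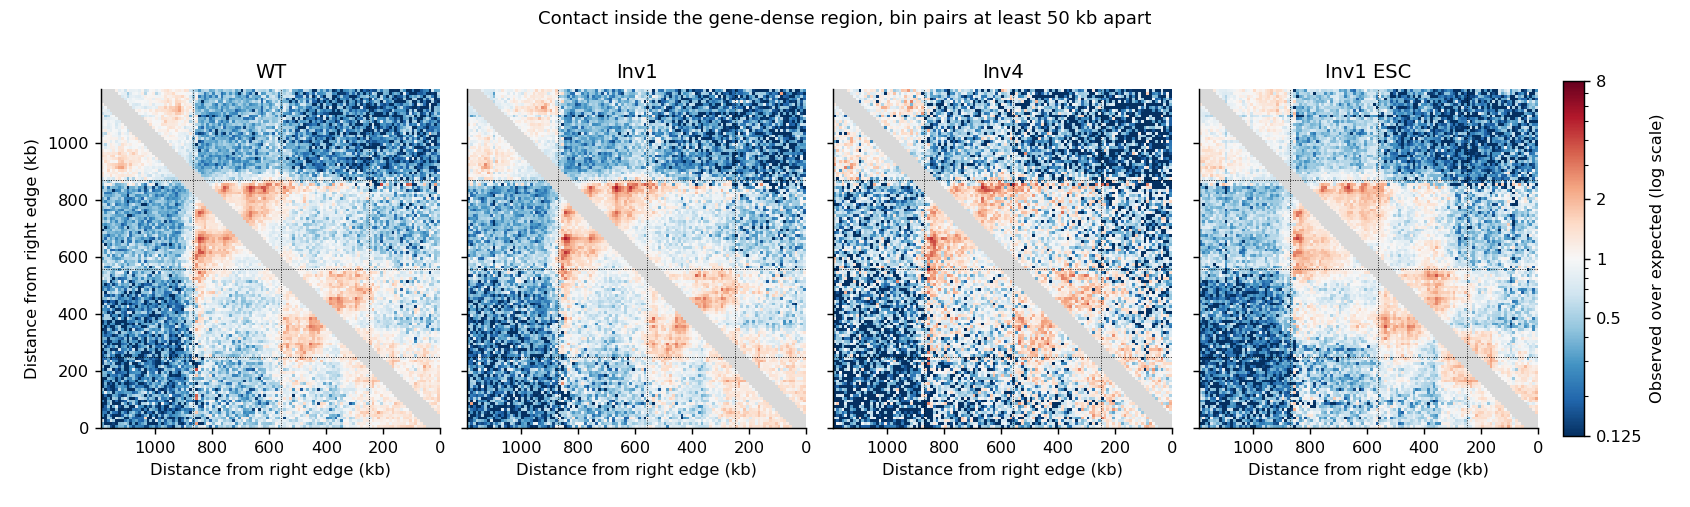
Observed over expected contact (colour, log scale) of the region's 10 kb bin pairs at least 50 kb apart in WT, Inv1, Inv4 and Inv1 ESC. Both axes give the distance from the region's right edge in kb, dotted lines mark the WT boundaries 870, 560 and 250 kb from the edge, and values below 0.125, including values below 0 in the subtracted Inv4 map, take the darkest blue. The boundary at 870 kb separates blue from red squares in every panel, and the Inv4 panel is grainier.

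The 2 main boundaries were found in every mutant map. The boundary of domains 1 and 2 lay at 73.90 to 73.92 Mb and had a depth of 1.36 for WT, 1.39 for Inv1, 1.41 for Inv2, 1.46 for Inv3, 1.25 for Inv4, 1.37 for Inv1DelCTCF and 1.05 for Inv1 ESC. The limb bud mutants differed from WT by -0.11 to 0.10, and the stem cell map had the lowest depth. The boundary of domains 2 and 3 lay at 74.23 or 74.24 Mb and had a depth of 0.85 for WT, 0.77 for Inv1, 0.71 for Inv2, 0.65 for Inv3, 0.66 for Inv4, 0.76 for Inv1DelCTCF and 0.56 for Inv1 ESC. With the 200 kb square it was shallower than in WT in each of the 6 mutant maps, which share the WT map as their reference. At the WT position, the Inv1 difference shrank from -0.081 to -0.023 with a 100 kb square and -0.021 with a 300 kb square. Both lay within their counting half-intervals of 0.087 and 0.045. The Inv1 ESC difference was also smaller with a 100 kb square. The difference in Inv1DelCTCF there turned from -0.086 to 0.017 with a 100 kb square. Those of Inv3 and of Inv4 shrank from -0.24 to -0.13 and from -0.21 to -0.11 with the subtracted WT signal added back.

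The weak boundary of domains 3 and 4 was the least constant. It was found at 74.54 Mb in Inv1 with a depth of 0.26 and in Inv3 with 0.29, close to the 0.27 of WT. The nearest minimum lay at 74.49 Mb in Inv2, 74.50 Mb in Inv1DelCTCF and 74.47 Mb in Inv1 ESC, beyond the 30 kb allowed for a counterpart. In Inv4, in which the moved sequence adjoins the region, the boundary at 74.54 Mb had a depth of 0.55 and a further minimum of the same depth lay at 74.68 Mb. The insulation score at 74.54 Mb itself was -0.0034 for Inv4 and 0.0085 for WT, within the counting SE of 0.032, so the greater depth came from a higher score to the right, where the squares reach into the moved sequence. With the subtracted WT signal added back, the depth difference at 74.54 Mb turned from 0.28 to -0.11. At 74.68 Mb the insulation score was -0.003 ± 0.032 for Inv4 and 0.26 ± 0.013 for WT, and this square too contains moved sequence.

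**Figure D2:**
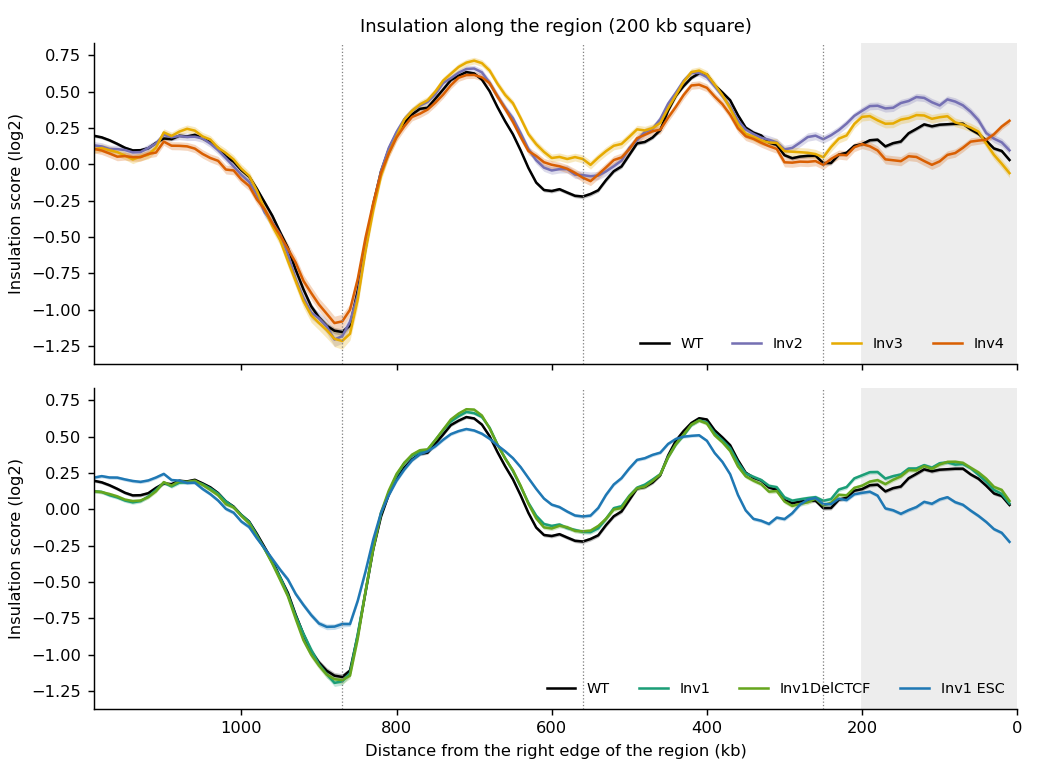
Insulation score (log2) against the distance from the region's right edge, with WT, Inv2, Inv3 and Inv4 above and WT, Inv1, Inv1DelCTCF and Inv1 ESC below. Bands are 1 counting SE, dotted lines mark the WT boundaries, and in the grey stretch the 200 kb square reaches past the region. All maps have their minimum near 870 kb, and the Inv1 ESC line is the one that leaves the others along most of the region.

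Where the whole square lay in the region, the spread of insulation differences from WT was of similar size to that of the left flank. These 79 bins leave out the 200 kb at each end of the region, which hold most of domain 4. The SD of the difference over them was 0.032 for Inv1, 0.07 for Inv2, 0.10 for Inv3, 0.074 for Inv4 and 0.035 for Inv1DelCTCF. Over 220 bins of the left flank it was 0.028, 0.078, 0.08, 0.074 and 0.031. The region's SD was above that of the flank in Inv1, Inv3 and Inv1DelCTCF, below it in Inv2 and the same in Inv4. Inv3 had the widest spread of these maps, with a largest difference of 0.27.

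Contact within each domain was close to WT in Inv1 and Inv1DelCTCF. The limb bud maps with a nearer segment, Inv2, Inv3 and Inv4, are also those with WT signal subtracted. Distance and subtraction therefore cannot be told apart between these sets of maps. In Inv1 and Inv1DelCTCF, in which 490 kb separate the region from the moved segment, the 4 within-domain values differed from WT by at most 0.041 on the log2 scale. Read pairs without balancing gave larger values: 0.055, 0.12, 0.10 and 0.17 within domains 1 to 4 of Inv1, and up to 0.074 (domain 4) in Inv1DelCTCF. In Inv4 domain 4 had an O/E of 1.13 ± 0.0293 against 1.26 for WT, a log2 ratio of -0.15 (counting interval -0.24 to -0.061). The same domain was higher than WT in Inv2, with 1.4 ± 0.0298 and a log2 ratio of 0.16 (0.081 to 0.23), and in Inv3, with 1.35 and 0.10 (0.017 to 0.18). Domain 4 thus lay below WT in Inv4 and above it in Inv2. The Inv3 value was 0.058 (-0.023 to 0.14) with expected contact from the region alone. With the subtracted WT signal added back, the ratios were 0.082 for Inv2, 0.051 for Inv3 and -0.072 for Inv4, and each kept its sign. Domains 1 and 2 had intervals that included 0 for Inv2, Inv3 and Inv4. Domain 3 did so in Inv2 and Inv3, and in Inv4 its ratio was -0.066 (-0.13 to -0.00044).

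Between domains, contact across the boundary at 74.23 Mb was higher than in WT in all limb bud mutants, with an O/E of 0.862 for Inv1, 0.879 for Inv1DelCTCF, 0.916 for Inv2, 0.998 for Inv3 and 0.915 for Inv4 against 0.815. The largest of these log2 ratios was 0.29 (0.23 to 0.36) in Inv3. With expected contact from the region alone the intervals of Inv1 (0.025, -0.017 to 0.067) and Inv2 (0.068, -0.008 to 0.14) included 0, and the ratio was 0.18 for Inv3, 0.12 for Inv4 and 0.076 for Inv1DelCTCF. Contact of domains 1 and 2, across the strong boundary, was 0.504 for Inv4 against 0.437 for WT (log2 ratio 0.21, interval 0.13 to 0.29), whereas Inv2 and Inv3 had ratios of 0.056 and 0.0095 with intervals that included 0. Domains 1 and 4, the most distant pair, had an O/E of 0.201 for Inv2, 0.181 for Inv3 and 0.204 for Inv4 against 0.271 for WT and 0.269 for Inv1. These low values depended on the expected contact: with it taken from the region alone, the log2 ratios of Inv2, Inv3 and Inv4 moved from -0.43, -0.58 and -0.41 to 0.0038, -0.068 and -0.047, with intervals that included 0. With the subtracted WT signal added back they were -0.21, -0.28 and -0.22, with intervals below 0. Averaged over all pairs of bins in different domains, O/E was 0.537 for WT and 0.548 to 0.561 in the mutants.

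**Figure D3:**
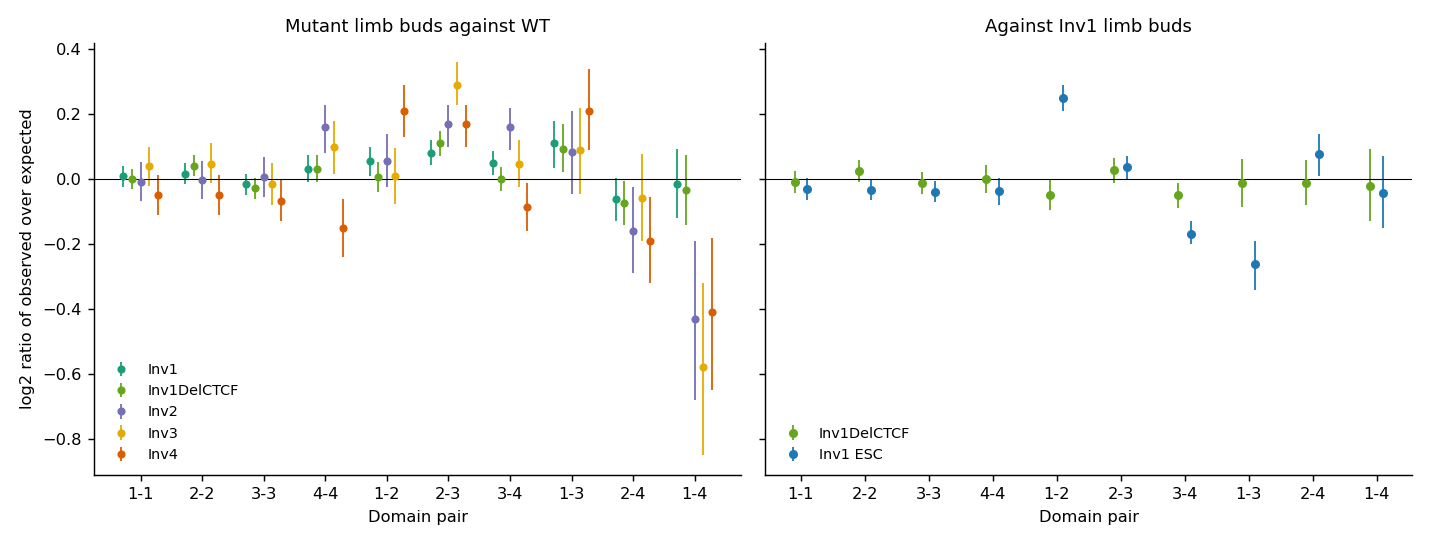
Log2 ratio of observed over expected contact for each pair of domains, from pairs within a domain (left) to the most distant pair (right). The left panel sets 5 mutant limb bud maps against WT and the right panel sets Inv1DelCTCF and Inv1 ESC against Inv1, with 95% counting intervals. In the right panel Inv1 ESC stands apart at pairs 1-2, 3-4 and 1-3, with log2 ratios of 0.25, -0.17 and -0.26, of which that at 3-4 is -0.0022 without balancing.

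At the scale of 50 kb blocks, 2-fold differences depended on the pseudocount. Of the region's 253 block pairs, 0 passed 2-fold on log2 (O/E + 0.5) in any comparison, including Inv1 ESC against Inv1. Over all 2983 block pairs outside the rearranged stretch, the share past 2-fold was 0% for Inv1 and Inv1DelCTCF, 0.0335% for Inv2 and Inv4 and 0.067% for Inv3 against WT, 0.067% for Inv1 ESC against Inv1 and 0.0335% for Inv1 ESC against WT, so the region's count did not differ from a near-empty background. In 105 of the 253 blocks WT O/E was at most 0.5, where this pseudocount does not allow a 2-fold lower call. With a pseudocount of 0.1, 8 blocks in Inv2, 8 for Inv3 and 5 for Inv4 were lower past 2-fold, which is 3.16%, 3.16% and 1.98% of the region's blocks against 0.905%, 1.14% and 0.57% of all blocks. The shares of all blocks count calls in either direction and include the region, in which 0 were higher. By this count the region's share was above the background in all 3 maps. The calls include blocks near 0. In Inv2 the block of 73.75 to 73.80 Mb and 74.70 to 74.75 Mb had an O/E of 0.00859 ± 0.0776 against 0.293 ± 0.0513. At 1.5-fold with the pseudocount of 0.5, Inv3 had 0 of the 253 blocks past the threshold, against a background of 0.905%. Inv2 had 3 of 253 lower against 0.905%, and 2 of 253 were lower for Inv4 against 0.704%. An excess over the background in all 3 maps was thus not found at this threshold. Single pairs of 10 kb bins passed 2-fold more often: 131 of 6555 for Inv1, 712 for Inv2, 810 for Inv3, 783 for Inv4, 125 for Inv1DelCTCF and 145 for Inv1 ESC against WT, and 172 for Inv1 ESC and 166 for Inv1DelCTCF against Inv1. These are 2%, 10.9%, 12.4%, 11.9%, 1.91%, 2.21%, 2.62% and 2.53% of the region's pairs. Over all 79508 pairs outside the rearranged stretch the shares in the same order were 4.13%, 17.4%, 18.4%, 17.5%, 4.25%, 5.61%, 6.47% and 5.07%, each above the region's share. The lowest ratio in Inv4 was between 73.90 to 73.95 Mb and the last 40 kb of the region, with an O/E of 0.121 ± 0.115 against 0.482 ± 0.0828, and the next was between 74.05 to 74.10 Mb and 74.70 to 74.75 Mb, with 0.185 ± 0.0808 against 0.568 ± 0.0492. The highest in Inv4 was between 73.90 to 73.95 Mb and 74.45 to 74.50 Mb, with 0.94 ± 0.146 against 0.611 ± 0.0629.

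The spread of block ratios was set beside the spread that counting alone gives. In the region the observed SD was 1.09 times the counting SD in Inv1, 1.16 times in Inv1DelCTCF, 1.25 times in Inv2, 1.19 times in Inv3 and 1.25 times in Inv4. In the left flank the same ratios were 1.11, 1.13, 1.21, 1.14 and 1.03. Inv4 was the map in which the region exceeded its flank the most. Across the 253 blocks, Pearson's r with WT was 0.982 for Inv1, 0.98 for Inv1DelCTCF, 0.933 for Inv2, 0.939 for Inv3 and 0.917 for Inv4, and in the left flank 0.985, 0.985, 0.946, 0.947 and 0.955. These correlations describe blocks that share a library and its depth. With expected contact taken from the region alone, r was 0.935 for Inv1, 0.93 for Inv1DelCTCF, 0.611 for Inv2, 0.7 for Inv3 and 0.588 for Inv4. It was thus lower in each of the subtracted maps. With the WT signal added back and expected contact from the map, r was 0.98 for Inv2, 0.981 for Inv3 and 0.975 for Inv4.

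The moved segment was the stretch of the Epha4 domain between its WT border at 75.62 Mb and the shared right breakpoint, 280 kb long. It lies 830 kb from the region's right edge in WT, 490 kb in the Inv1 maps, 340 kb in Inv2, 140 kb in Inv3 and 0 kb in Inv4. The labels give no breakpoints, so the limits of the inversions were inferred from the map values and the border from WT insulation. These distances and the comparisons at the same place below rest on those limits. The segment's share of the region's contacts was 0.412% for WT, 0.946% for Inv1, 0.894% for Inv1DelCTCF, 0.899% for Inv2, 1.72% for Inv3 and 5.13% for Inv4. Inv4 stood far above the other maps, and Inv2 did not exceed Inv1 although its segment lies nearer. The difference between Inv4 and WT was 4.72 percentage points, and 2.41 with the WT signal added back.

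This contact was concentrated next to the edge and decreased from domain to domain. In Inv4 it took 17.3% ± 0.177 (counting SE) of the contacts of domain 4, 3.8% ± 0.0742 of domain 3, 1.67% ± 0.0517 of domain 2 and 0.611% ± 0.0347 of domain 1. In WT the same segment took 0.515%, 0.374%, 0.417% and 0.369%. Within 40 kb of the edge the share in Inv4 was 30.9% against 0.681% for WT, at 340 to 390 kb it was 3.17% against 0.425%, and beyond the strong boundary, at 890 to 940 kb, it was 0.687% against 0.357%. From the edge inwards the counting interval stayed wholly above that of WT without a break for 990 kb in Inv4. It did so for 840 kb in Inv1, Inv1DelCTCF and Inv3, for 640 kb in Inv2 and for 940 kb in Inv1 ESC, whose cells differ too. In Inv1, Inv1DelCTCF and Inv3 that stretch ended at the strong boundary, 870 kb from the edge, to within one 50 kb step. In domain 1 the share was 0.379% for Inv1, 0.394% for Inv1DelCTCF, 0.243% for Inv2 and 0.369% for Inv3, near or below the WT value.

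A nearer segment gains contact by distance alone, so its share was set beside that of the WT sequence at the same distance. In WT the first 280 kb to the right of the region took 10.5% ± 0.0733 of the contacts of domain 4, and the moved segment at that place in Inv4 took 1.65 times as much. For domain 3 the ratio was 1.33, and for domains 2 and 1 it was 1.04 and 1.01. In the other limb bud mutants the moved segment mostly took less than the WT sequence at the same place: the ratios for domains 1 to 4 were 0.606, 0.626, 0.598 and 0.717 for Inv2, 0.766, 0.743, 0.895 and 1.04 for Inv3, and 0.994, 0.746, 0.753 and 0.922 for Inv1. In Inv1DelCTCF they were 1.03, 0.742, 0.714 and 0.828, and in Inv1 ESC 1.19, 0.968, 0.8 and 1.06. The largest ratios were those of domains 4 and 3 in Inv4, followed by domain 1 in Inv1 ESC, where the share was 0.454% ± 0.014 against 0.381% ± 0.0116 for the WT sequence at that place. Inv1 ESC differs from the WT limb buds in both the inversion and the cells, which cannot be told apart in its ratios.

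**Figure D4:**
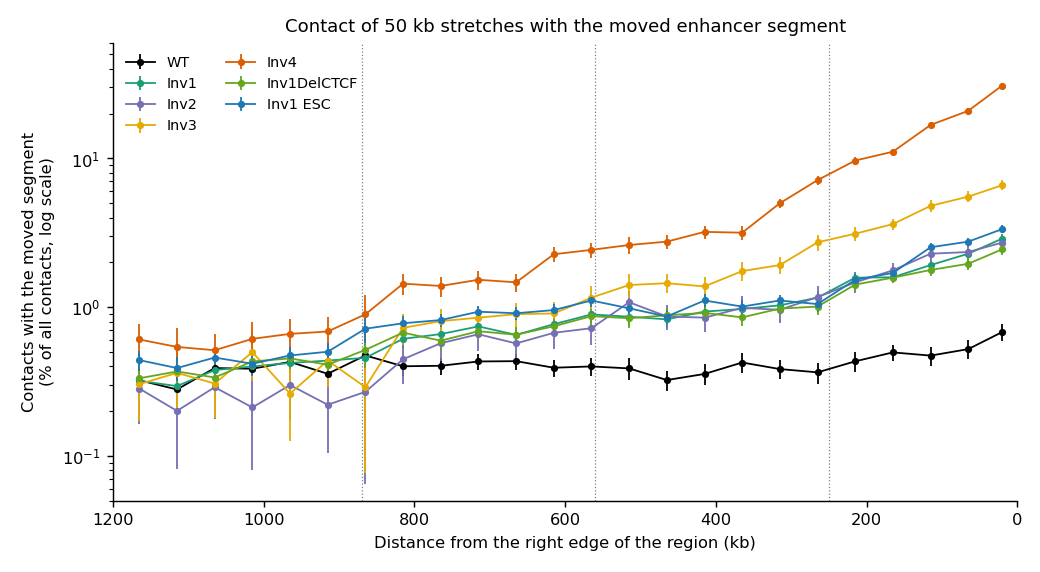
Share of contacts that each stretch of the region (50 kb, 40 kb at the edge) makes with the moved segment, in percent on a log scale, against the distance from the region's right edge in all 7 maps. Error bars are 95% counting intervals and dotted lines mark the WT boundaries. Inv4 descends from 30.9% at the edge to 0.607% at the far end, and left of the boundary at 870 kb most maps meet the WT line.

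Contact inside the region was lower in Inv4. The share of contacts that stayed inside was 73.5% for WT, 73.8% for Inv1, 74.2% for Inv2, 73% for Inv3 and 66.3% for Inv4, and Inv1DelCTCF lay 0.0393 percentage points above WT. The Inv4 difference of -7.24 percentage points (counting interval -7.55 to -6.94) was -3.72 with the WT signal added back and -5 over pairs at least 50 kb apart. This interval treats the maps as independent although Inv4 has WT signal subtracted, so it is too narrow. By domain the difference was -5.85 points in domain 1, -5.17 in domain 2, -6.11 in domain 3 and -13.2 in domain 4. In domain 4 the share that went to the rearranged stretch was 29.5% for Inv4 and 16.1% for WT, while in domain 1 the share that went to the left flank was 44.3% and 38%. The left flank share of domain 1 was also above WT in the other limb bud mutants: 42% for Inv2, 41.9% for Inv3, 39.9% for Inv1DelCTCF and 39.4% for Inv1. Balancing gives each bin the same total, so that a gain with one stretch lowers the share of the others by construction, and the 2 cannot be told apart from these shares.

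The stem cell state was read from Inv1 ESC against Inv1 limb buds, which share the rearrangement. Both main boundaries were shallower in stem cells: 1.05 against 1.39 at the first and 0.56 against 0.77 at the second. Contact across the first was correspondingly higher, with an O/E of 0.54 between domains 1 and 2 against 0.454 (log2 ratio 0.25, interval 0.21 to 0.29). Domains 1 and 3 met less, with 0.282 against 0.338 (log2 ratio -0.26, interval -0.34 to -0.19), and so did domains 3 and 4, with 0.811 against 0.91 (-0.17, interval -0.20 to -0.13). The difference of domains 3 and 4 was not found without balancing, where the log2 ratio was -0.0022 (-0.035 to 0.031), whereas those of domains 1 and 2 and of domains 1 and 3 were 0.23 and -0.24. Within the 4 domains the log2 ratios ranged from -0.03 to -0.038, and from -0.19 (domain 1) to 0.10 (domains 3 and 4) without balancing. At the WT positions, the smaller depth of the second boundary depended on the square, with a difference of -0.21 at 200 kb, -0.017 at 100 kb and -0.12 at 300 kb, whereas that at the first was -0.34 at 200 kb and -0.57 at 100 kb.

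On the right of the region the stem cell domains were cut at other places. Minima lay at 74.47 Mb, with a depth of 0.22, and at 74.64 Mb, with 0.35, in place of the limb bud boundary at 74.54 Mb. At 74.64 Mb the insulation score was -0.031 ± 0.013 for Inv1 ESC and 0.24 ± 0.014 for Inv1, and at 74.47 Mb it was -0.10 ± 0.013 and 0.16 ± 0.014. The square at 74.64 Mb reaches past the region's edge, into sequence that neither map has rearranged. A 100 kb square placed these minima at 74.45 Mb, with a depth of 0.71, and 74.63 Mb, with 0.60. It placed WT minima at 74.49 and 74.62 Mb, with depths of 0.40 and 0.32, so that at this finer scale limb buds had nearby but shallower minima. Blocks across these positions went both ways. Contact between 74.50 to 74.55 Mb and the last 40 kb of the region was 0.758 ± 0.0409 in stem cells and 1.17 ± 0.0587 in limb buds. The largest fall, between 73.90 to 73.95 Mb and 74.50 to 74.55 Mb, was to 0.323 ± 0.0523 from 0.651 ± 0.0812. The 2 largest rises cross both minima. Contact of 73.95 to 74.00 Mb with 74.65 to 74.70 Mb was 0.742 ± 0.0605 against 0.395 ± 0.048. Contact of 73.90 to 73.95 Mb with 74.70 to 74.75 Mb was 0.566 ± 0.109 against 0.305 ± 0.0595. Contact between 74.10 to 74.15 Mb and 74.40 to 74.45 Mb, which crosses neither minimum, was 1.09 ± 0.0399 and 0.74 ± 0.0382.

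Blocks of the region had a smaller spread between the cells than blocks of its surroundings. The SD of block ratios of Inv1 ESC against Inv1 was 2.16 times the counting SD in the region, 3.0 times in the left flank and 2.62 times to the right of the inversions, whereas Inv1DelCTCF against Inv1 gave 1.07, 1.05 and 1.04. At 1.5-fold, 0 of the 253 blocks passed, against 2.35% of all 2983 blocks (2.55% for Inv1 ESC against WT). Pearson's r between Inv1 ESC and Inv1 was 0.93 over the region's blocks and 0.888 over those of the left flank. The insulation profile was no closer, with an SD of 0.15 in both.

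Stem cells also kept fewer contacts inside the region, 71.6% against 73.8%. Domain 2 contributed most, with 75.4% against 80.6%, and had 15.5% of its contacts with the left flank against 12.9%. Over pairs at least 50 kb apart the difference for the region turned from -2.16 to 0.298 percentage points, so its sign depended on whether nearer pairs were counted. The moved segment took 1.1% of the region's contacts in stem cells and 0.946% for Inv1 limb buds, and the deletion in Inv1DelCTCF left 0.894%. Inv1DelCTCF otherwise followed Inv1: the log2 ratio of each domain pair lay between -0.05 and 0.028, and between -0.18 and -0.0097 without balancing.

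The 5 named bin pairs, the strongest WT peaks over their surroundings at 100 to 1000 kb, were of 2 kinds. A pair of them inside domain 2 rested on many read pairs and were found in all maps. The peak joining 73.94 and 74.04 Mb (3 by 3 bins, 1003 read pairs in WT) had an O/E of 2.4 ± 0.0954 for WT, 2.23 for Inv1, 1.95 for Inv2, 2.2 for Inv3, 2.03 for Inv4, 2.38 for Inv1DelCTCF and 2.36 for Inv1 ESC. The peak joining 73.95 and 74.12 Mb had 3.1 ± 0.099 for WT, 3.39, 3.85, 3.37, 3.07 and 3.58 in the limb bud mutants in the same order, and 2.8 ± 0.0941 for Inv1 ESC. Both start just inside domain 2, beside the strong boundary, and were 1.64 to 2.49 times their surroundings of 11 by 11 bins in every map. The other 3 pairs, 670 to 740 kb apart, rested on 32 to 46 WT read pairs, and in the 6 mutant maps none of them exceeded 1.09 times its surroundings. They were chosen for their WT value, so lower values elsewhere carry no weight.

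The authors' deposited tables give 1 scaled contact value for a gene's start site with the enhancer region in WT and the 4 inversions, with the scaling and the positions not stated. The 25 genes from Tns1 to Prkag3 in table order were read as those on the region's side of the inversions, from the order of the list and not from coordinates. Prkag3, the last of them, encodes a regulatory subunit of the energy sensor AMPK in skeletal muscle, and was 1.01 for WT, 1.61 for Inv1, 2.07 for Inv2, 10.5 for Inv3 and 33.9 for Inv4. Cyp27a1, a mitochondrial sterol hydroxylase of bile acid synthesis, was 0.633, 2.88, 1.67, 6.15 and 25.2 in the same order. Ttll4, an enzyme that adds glutamate chains to tubulin, was 0.447, 1.7, 3.91, 4.45 and 17.5. These 3 genes nearest the end of the list had the highest Inv4 values of the 25. Wnt6, a secreted signalling protein and the next gene of the list, was 0.401, 4.41, 4.22, 15.4 and 0.545, and so was high in Inv3 and near WT in Inv4.

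Along the rest of the list the Inv4 values were lower, with no steady order. The median of the 25 genes was 0.279 for WT, 0.91 for Inv1, 0.622 for Inv2, 1.87 for Inv3 and 4.61 for Inv4, and 22, 15, 24 and 25 of them were above their WT value in Inv1 to Inv4. Each table is scaled on its own, so these counts move with the scale: of all 103 listed genes 80, 52, 70 and 83 were above WT (77.7%, 50.5%, 68% and 80.6%), and the median of all genes was 0.447 for WT and 1.01, 0.438, 1.23 and 1.88 for the inversions. Over 23 genes listed further left, the SD of the difference from WT was 0.337, 0.406, 0.623 and 0.616, and their median was 0.514 for Inv4 and 0.188 for WT. From Usp37 to Prkag3 the 10 Inv4 values were 11.9 to 33.9, and the 15 values from Tns1 to Vil1 were 0.706 to 5.63, a division made after the values were seen. Usp37, a deubiquitinase, was 11.9, whereas its neighbour in the list Vil1, which bundles actin in microvilli, was 5.63. Several genes share a value with a neighbour (Usp37 and Rqcd1, Zfp142 and Bcs1l, Rnf25 and Stk36, Aamp and Pnkd, Tns1 and Rufy4), so the 25 are not separate measurements. Tns1, which encodes a focal adhesion protein, was listed at 0 for WT and at 4.36 for Inv4. Slc11a1, a metal ion transporter of macrophages, had the lowest Inv4 value, 0.706 against 0.423.

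**Figure D5:**
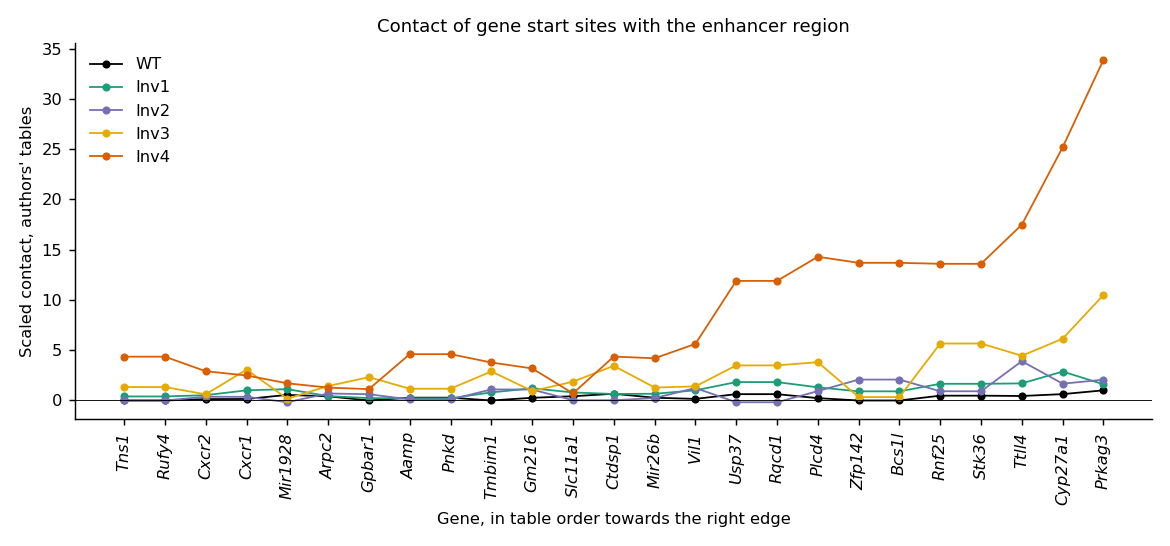
Scaled contact of 25 gene start sites with the enhancer region in the authors' tables, for WT, Inv1, Inv2, Inv3 and Inv4. Genes stand in table order from Tns1 (left) to Prkag3 (right), and lines only join values of one library. Inv4 reaches 33.9 at Prkag3 and Inv3 reaches 10.5, while WT stays at or below 1.01.

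RefSeq promoters in GRCm38.p6, another build than that of the maps, were found for 21 of the 25 genes (22 promoters, from 250 bases before to 50 after the start). The 2 at the end of the list are shown because their contact with the enhancer region was highest, Prkag3 (chr1:74748906-74749205, minus strand) and Cyp27a1 (chr1:74713285-74713584, plus strand). Neither holds CCANNAGGG, a 9-base part of one form of the motif bound by CTCF, searched on both strands. This short form was taken up after a longer form of the motif had been searched in the same promoters, which matched other genes, so the count below depends on the letters chosen.
Prkag3: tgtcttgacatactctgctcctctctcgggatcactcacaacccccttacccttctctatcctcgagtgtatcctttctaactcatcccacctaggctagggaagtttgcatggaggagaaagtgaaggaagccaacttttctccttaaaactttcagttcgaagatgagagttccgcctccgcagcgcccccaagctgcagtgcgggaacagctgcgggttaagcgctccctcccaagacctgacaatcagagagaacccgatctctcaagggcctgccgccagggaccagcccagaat
Cyp27a1: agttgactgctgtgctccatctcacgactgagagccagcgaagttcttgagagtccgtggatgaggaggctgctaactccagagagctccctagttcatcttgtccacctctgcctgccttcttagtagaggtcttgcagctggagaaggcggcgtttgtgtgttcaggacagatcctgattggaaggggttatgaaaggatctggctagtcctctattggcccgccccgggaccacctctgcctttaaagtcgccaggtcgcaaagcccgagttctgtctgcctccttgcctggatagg
These letters were found in 1 of the 22 promoters and in 5.98% of all 32851 promoters. The match lay in the promoter of Pnkd (chr1:74332360-74332659, plus strand), and capitals mark it.
Pnkd: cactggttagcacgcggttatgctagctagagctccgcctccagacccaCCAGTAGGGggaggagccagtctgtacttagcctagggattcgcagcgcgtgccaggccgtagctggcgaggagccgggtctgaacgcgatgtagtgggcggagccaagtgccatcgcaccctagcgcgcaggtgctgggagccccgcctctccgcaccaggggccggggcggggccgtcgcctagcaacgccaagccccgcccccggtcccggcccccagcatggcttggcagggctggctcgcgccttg
A match is a description of the letters and not a bound site, and the promoters were not placed on the boundaries, since their positions are of another build.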

How the data were processed

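Capture Hi-C contacts were measured in 7 libraries, grouped by sample title, with 1 library per condition. Reads were processed with Bowtie2 2.2.6 and Juicer on mm9, per the submitters' processing notes, and which step each served is not stated there. The authors deposited 1 Knight-Ruiz balanced signal per pair of 10 kb bins for WT, Inv1, Inv1DelCTCF and Inv1 ESC. The deposited Inv2, Inv3 and Inv4 maps are a score rather than a signal, since values fall below 0: 82.1%, 83.9% and 86.9% of their negative pairs lay at 1 multiple of the WT map (0.423, 0.369 and 0.334), a step that the labels do not describe. The authors' gene tables hold a scaled contact score, each scaled on its own.

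Balanced values were whole read pairs times a factor per bin. Fitting the factors gave whole numbers (within 0.1) for 100.0% of values under 20 read pairs, and for 99.9% in Inv2 to Inv4 after the WT multiple was added back. Mutant maps are written in rearranged order inside the inversions, so the region's coordinates are the same in all maps. Expected contact was the mean at each distance outside the rearranged stretch, and 4 bins under 25% of the median coverage were left out. Blocks were 50 kb, at least 50 kb apart, with a pseudocount of 0.5. Calculations used Python 3.11.15, numpy 2.4.6 and scipy 1.17.1, and were tested on simulated maps.

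The loci named were every WT boundary, the 5 bin pairs with the highest WT O/E over their surroundings, the 3 blocks with the largest and the 3 with the smallest ratio of each comparison (of which some are given), and the genes from Tns1 to Prkag3 with Wnt6. The region, these lists and the measures were chosen with earlier results of these data known. Alternatives for the insulation square, boundary rule, expected contact, pseudocount, block size, balancing and WT subtraction were tried.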

Additional observations from a re-analysis of the deposited data

How the results depend on the processing

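Each value was recomputed with 1 choice changed at a time, 517 recomputations of 168 values in all. The groups had 1 library each, so leaving one out was not an option and the spread between libraries is not known. No paired analysis was possible because each condition is 1 library and the labels number no replicates. Causes were not tested, except that adding back WT signal mixes WT contacts into Inv2 to Inv4 by construction. Counting limits single 10 kb pairs most, at a median of 11 to 15 read pairs.

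With a 100 kb square WT had 5 boundaries, of which 5 were found in Inv1, Inv2, Inv3 and Inv1DelCTCF against WT (and in Inv1DelCTCF against Inv1) and 3 for Inv4 and Inv1 ESC. Within 10 kb, 1 WT boundary was found in Inv1 ESC. The depth difference at boundary 1 became 0.066 for Inv4 against WT, -0.46 for Inv1 ESC against WT, -0.57 for Inv1 ESC against Inv1 and -0.12 for Inv1DelCTCF against Inv1 with a 100 kb square. At boundary 2 Inv1 became -0.023, Inv1DelCTCF 0.017 and Inv1 ESC -0.041 against WT, and Inv1 ESC -0.017 against Inv1. With a 300 kb square the boundary 2 values in that order were -0.021, -0.025, -0.14 and -0.12. With WT signal added back they were -0.13 for Inv3 and -0.11 for Inv4. At boundary 3 Inv4 gave 0.10 with a 100 kb square and -0.11 with WT signal added back, a reversal of 0.28, and with a 300 kb square Inv1 ESC gave -0.035 against WT and -0.029 against Inv1.

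Contact between domains (log2 ratio) with expected contact from the region alone became 0.0056 for Inv1, 0.0035 for Inv1DelCTCF, 0.01 for Inv2 and 0.0077 for Inv3 against WT, and 0.027 for Inv1 ESC against Inv1. Without balancing it became 0.16 for Inv1 and 0.25 for Inv1 ESC against WT, and 0.083 for Inv1 ESC and -0.13 for Inv1DelCTCF against Inv1. With domain edges moved inwards Inv1 ESC gave 0.086 against WT and 0.026 against Inv1. Single domain pairs reversed in 5 cases: 3-4 for Inv1 (-0.0082) and 1-4 for Inv2 (0.0038) with expected contact from the region alone, and, without balancing, 3-3 (0.20) and 3-4 (0.17) in Inv1 ESC against WT and 3-3 (0.10) against Inv1.

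The share inside the region, over pairs at least 50 kb apart, differed from WT by 0.436 points in Inv1, 1.82 for Inv2, 1.03 for Inv3 (a reversal), -5 for Inv4 and 0.734 for Inv1 ESC (a reversal), and by 0.298 between Inv1 ESC and Inv1 (a reversal). Without balancing Inv1 gave 0.491, Inv1DelCTCF -0.384 and Inv1 ESC -1.56, and -0.874 for Inv1DelCTCF against Inv1. With WT signal added back it was 0.332 for Inv2 and -3.72 for Inv4. The share with the moved segment stayed above WT in every mutant and setting run. Over pairs at least 50 kb apart its difference was 0.913 points in Inv1, 0.811 for Inv2, 2.11 for Inv3, 6.63 for Inv4, 0.82 for Inv1DelCTCF and 1.02 for Inv1 ESC, and against Inv1 0.106 for Inv1 ESC and -0.0932 for Inv1DelCTCF. With the segment trimmed it was 0.442, 0.407, 1.07, 3.77, 0.412 and 0.587 in the same order of 6 maps. Without balancing Inv1 gave 0.489 and Inv1DelCTCF 0.434 against WT, and Inv1 ESC 0.196 against Inv1. With WT signal added back it was 0.25, 0.67 and 2.41 for Inv2, Inv3 and Inv4.

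Blocks past 2-fold numbered 8, 3 and 6 for Inv2, Inv3 and Inv4 with expected contact from the region alone, and 8, 8 and 5 with a pseudocount of 0.1. At 1.5-fold they numbered 3, 0 and 2 for the same maps. Of 6555 single 10 kb pairs, 131 for Inv1, 712 for Inv2, 810 for Inv3, 783 for Inv4, 125 for Inv1DelCTCF and 145 for Inv1 ESC passed 2-fold against WT, as did 172 for Inv1 ESC and 166 for Inv1DelCTCF against Inv1. Similarity to WT with expected contact from the region alone was 0.935, 0.611, 0.7, 0.588, 0.93 and 0.816 in that order of maps, and 0.79 for Inv1 ESC and 0.927 for Inv1DelCTCF against Inv1. Over single pairs it was 0.762, 0.514, 0.494, 0.468, 0.762 and 0.735, and 0.722 and 0.752 against Inv1. With WT signal added back it was 0.98, 0.981 and 0.975 for Inv2 to Inv4. As a Spearman correlation it was 0.976 for Inv1 and 0.972 for Inv1DelCTCF, and 0.975 between those maps. The median difference in O/E at the 5 named pairs, with expected contact from the region alone, was -1.05 for Inv2, -0.919 for Inv3, -0.693 for Inv1DelCTCF and -0.664 for Inv1 ESC against WT. These pairs were chosen for their high WT value, so negative differences carry no weight.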
